A study of Mus musculus with 20 samples.

Results

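How the transcriptome of fibroadipogenic progenitors differed between tumour-bearing and control mice at day 26, and whether that difference was the same at day 21, was compared across all genes in 13 of the 20 libraries of the study. Fibroadipogenic progenitors (FAPs) are the interstitial stromal cells of skeletal muscle. The tumour-bearing animals were male C57BL/6J mice that had 2 M cells of KPCY, a pancreatic tumour line from mouse, placed in 50 µL into the pancreas (KPC below). The controls were male C57BL/6J mice after sham surgery. Single FAPs were sorted from muscle as CD31-/CD45-/α7-integrin-/SCA-1+ events that were Hoechst 33342+ and PI-, so every group passed the same gate. The 4 groups were KPC day 26 (3 libraries), control day 26 (4), KPC day 21 (3) and control day 21 (3). The 1 tumour line limits what the KPC groups can stand for. The day 21 and day 26 tables were joined on 24394 shared gene symbols, of which 13762 passed the filter on low counts and were tested. For each gene the KPC over control log2 fold change was estimated at each day, and the day 21 value was subtracted from the day 26 value. A gene is called kept where KPC and control differed in the same direction at both days and the difference between the days did not pass the test. It is called grown where that difference passed and a called day 26 effect was the larger in size. A grown gene need not be called at day 21, and its uncalled day 21 effect can have the other sign. Faded means that the difference passed and a day 21 call was smaller at day 26, or had the other sign without a call. A faded gene can therefore still be called at day 26 in the same direction. A call is an adjusted p under 0.05 in edgeR's quasi-likelihood test with Benjamini-Hochberg adjustment over all genes tested.

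FAPs make much of the interstitial matrix of muscle, can turn into adipocytes, and secrete factors that act on satellite cells and myofibres. Pancreatic cancer commonly causes cachexia, a wasting of muscle and fat in which circulating cytokines of the interleukin-6 family and glucocorticoids are raised. Interleukin-6 family cytokines act through gp130 and STAT3, glucocorticoids through the glucocorticoid receptor, and cholesterol synthesis is governed by SREBP2, which is held in check when cells are sterol-replete.

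Total counts per library were 15706117 to 26395930. Pdgfra, the receptor that defines FAPs, stood at 1180.2 to 1610.0 CPM in the 13 libraries. Ly6a, which encodes SCA-1, stood at 578, 508 and 1197 CPM in KPC replicates 1 to 3 of day 26 and 1009 to 1439 CPM in the other libraries. On the first principal component, which held 47.2% of the variance of log2 CPM, the scores of day 26 were 117.5 and 96.0 in KPC replicates 1 and 2 and -18.0 in KPC replicate 3. The day 26 controls lay between -45 and -31, the KPC libraries of day 21 at 19.0, 43.8 and 11.9, and their controls between -38 and -36. KPC replicate 3 of day 26 therefore stood apart from the other KPC libraries of its day. The labels give each library a code that opens with a number whose meaning they do not state. At day 26 KPC replicates 1 and 2 and control replicates 1 to 3 share the number 227, KPC replicate 3 has 226 and control replicate 4 has 235. At day 21 the KPC libraries have 273, 276 and 273 and the controls 265, so that number and treatment cannot be told apart there. The sums of endothelial marker levels were 1166, 332 and 432 CPM in the KPC libraries and 384 to 557 CPM in the controls at day 26, and 1026, 655 and 522 CPM in KPC and 551 to 591 CPM in controls at day 21. The labels call the libraries biological replicates without naming the animals, so the p-values measure the spread between libraries. The joint fit of the 4 groups shared its estimate of that spread, so no p-value in it measures the spread of a single day. In sorted populations fewer cells of a state and less RNA per cell cannot be told apart.

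The difference between the days passed the test for no gene (0% of 13762, edgeR). At an unadjusted p under 0.05 it held for 1306 genes, and the smallest adjusted p was 0.202, for Ptgs2. DESeq2 called 33 genes, limma-voom 0 and limma-voom with sample quality weights 769. KPC and control libraries differed for 3482 genes at day 26 (25.3% of those tested, with KPC above for 2131 and below for 1351) and for 152 genes at day 21 (1.10%, above for 109 and below for 43). Of the 152 genes called at day 21, 113 were called in the same direction at day 26 and were kept (0.821% of all genes, 84 higher and 29 lower in KPC). The median size of their log2 fold changes was 1.47 at day 26 and 1.55 at day 21, with 79 smaller in size at day 26 and 34 larger. Calls at both days chose these genes, so their similar sizes are no test of persistence. The 95% interval of the difference between the days reached a median of 0.81 to either side of the estimate, and in 36 of the 113 it lay inside -1 to 1. A kept gene is therefore not shown to have the same effect at both days. The counts moved with single libraries. The kept genes numbered 800 without KPC replicate 3 and 185 without KPC replicate 1 of day 26, 50, 69 and 50 without control replicates 1, 2 and 3 of day 26, 23 and 37 without KPC replicates 2 and 3 of day 21, and 12, 12 and 22 without control replicates 1, 2 and 3 of day 21. The day 26 calls numbered 1301, 734 and 7216 without KPC replicates 1, 2 and 3 of day 26, and 1569, 1760 and 1698 without its control replicates 1, 3 and 4. The day 21 calls ranged between 17 without control replicate 1 of day 21 and 1485 without KPC replicate 3 of day 26. Of the 113 kept genes, 44 belonged to one of 29 pathway lists and 69 to none. When each day was fitted alone, 1639 genes differed at day 21 (12.5%, with 837 above and 802 below the controls) and none at day 26, where 4502 genes had an unadjusted p under 0.05. The median SD of log2 CPM was 0.442 among the KPC libraries of day 26, 0.180 among their controls, 0.240 among the KPC libraries of day 21 and 0.174 among their controls. The joint fit shared its estimate of spread across these unequal groups. Such a fit can make day 26 calls too easy and day 21 calls too hard, and the shares of 25.3% and 1.10% carry that limit. How far it moved the counts was not tested.

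**Figure D1:**
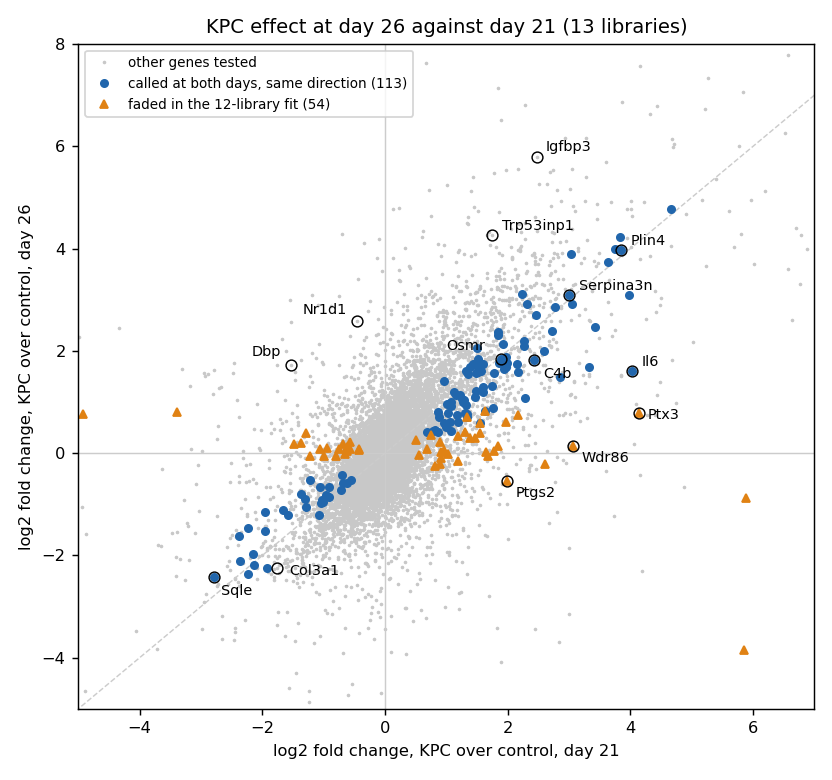
Each point is 1 gene, with its KPC over control log2 fold change at day 21 on the x axis and at day 26 on the y axis (13 libraries; 38 genes lie outside the axes). The 113 kept genes, chosen by calls in the same direction at both days, run along the diagonal of equal effects. The 54 genes that faded in the fit of 12 libraries lie mostly near the horizontal line of no effect at day 26.

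The day 21 pattern was present in all 3 KPC libraries of day 26, at unequal size. The 837 genes that were higher in KPC in the fit of day 21 alone had a median log2 difference from the day 26 controls of 1.47, 1.33 and 0.383 in KPC replicates 1, 2 and 3, and between -0.176 and 0.151 when each control was set against the other controls. Of these genes 89.7%, 90.3% and 85.1% were above the control mean in KPC replicates 1, 2 and 3, against 26.2% to 72.5% in the controls. The 802 genes that were lower at day 21 had medians of -1.21, -1.28 and -0.249 in KPC replicates 1, 2 and 3, and 95.3%, 96.6% and 86.9% of them were below the control mean. The day 21 values chose these genes, so their day 21 sizes are not compared. KPC replicate 3 lay outside the range of the day 26 controls for 52.9% of all genes tested, against 81.1% and 82.0% for KPC replicates 1 and 2. A library like the controls would also lie outside so small a group for many genes, and that share was not computed. All KPC libraries lay on one side of all controls for 3892 genes at day 26 (28.3%), and for 1715 genes at both days in the same direction (12.5%, 774 higher and 941 lower in KPC).

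Other choices of libraries show what this library decides. Without KPC replicate 3 of day 26, a choice made after its values were known, 14201 genes were tested in 12 libraries and the difference between the days was called for 2880 (20.3%, 1215 in favour of KPC at day 26 and 1665 against). KPC and control then differed for 7216 genes at day 26 (50.8%) and 1485 at day 21 (10.5%). In that fit 800 genes were kept (5.63%), 2732 grew (19.2%, 1156 higher and 1576 lower in KPC at day 26) and 54 faded (0.380%, 32 higher and 22 lower in KPC at day 21). The fit with only the libraries of number 227 at day 26 called the difference for 2515 genes, with 804 kept, 2398 grown and 55 faded, and 2429 of the 2515 were also called in the 12-library fit. KPC replicate 3 took no part in the 12-library classes, but the controls it is set against here did, so its values for those classes are a description and no separate test. For the kept genes its median log2 difference from the controls was 0.37 for those higher in KPC and -0.24 for those lower. For the grown genes the medians were 0.18 for the higher and -0.15 for the lower, beside 1.00 and 1.18 for the higher and -1.42 and -1.35 for the lower in KPC replicates 1 and 2. For the 32 faded genes that were higher in KPC at day 21, the day 26 medians were -0.10, 0.01 and 0.44 in KPC replicates 1, 2 and 3. Growth in the gene groups below is therefore a statement about KPC replicates 1 and 2. List counts are read against the shares of all genes, which were 25.3% called at day 26 and 1.10% at day 21 in the 13 libraries and 19.2% grown in the 12.

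**Figure D2:**
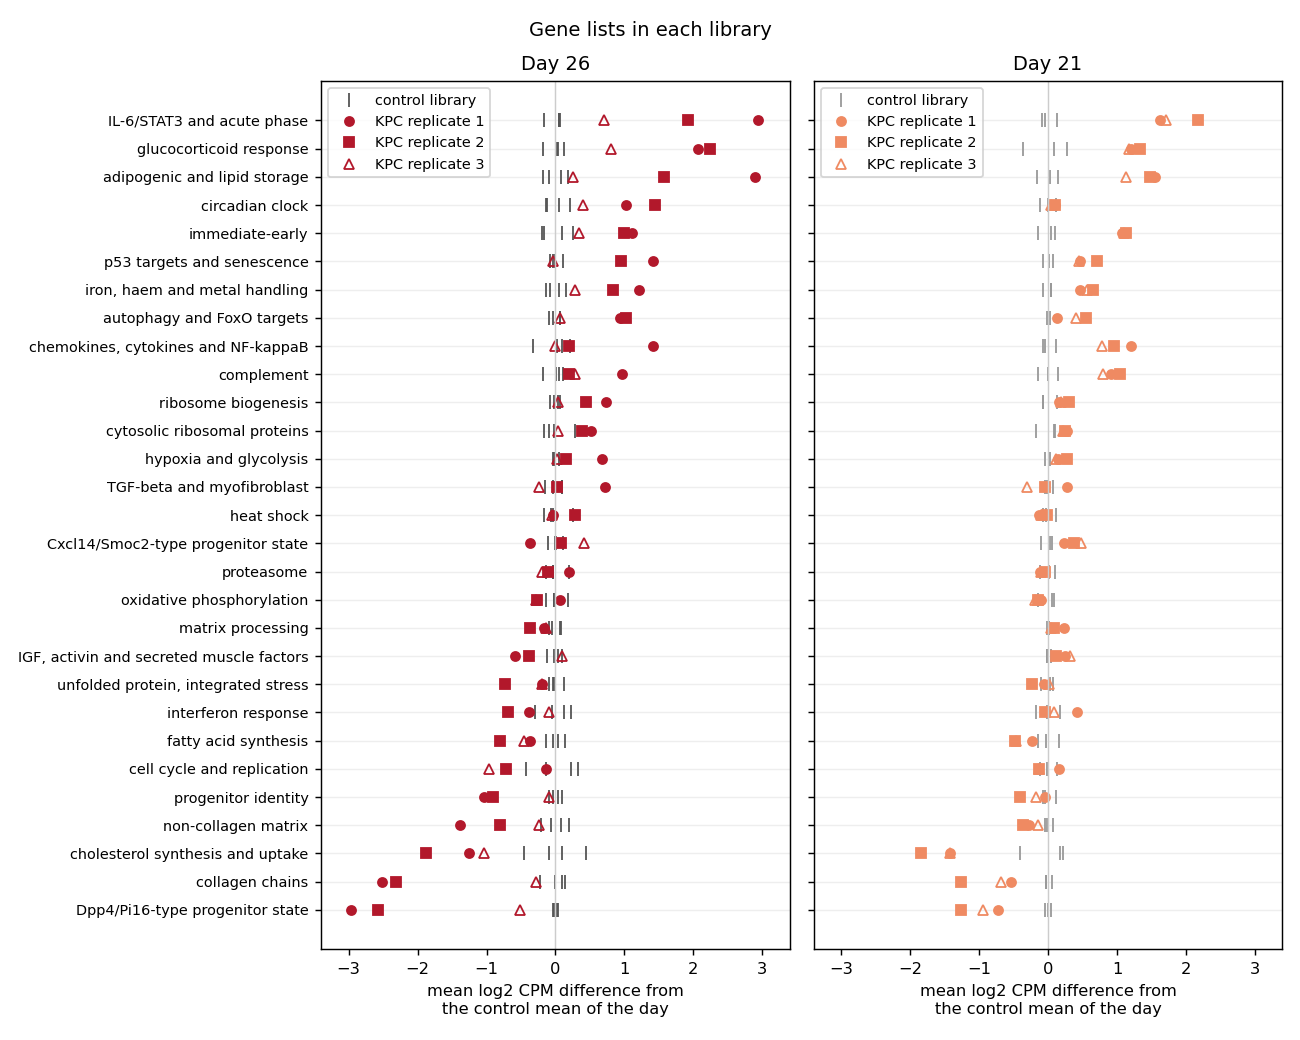
Mean log2 CPM of the genes of each pathway list in each KPC library minus the mean of the controls of its own day, with day 26 and day 21 side by side and replicate 3 hollow. Cholesterol genes were below the controls in all 6 KPC libraries (-1.88 to -1.03), while collagen chains were at -2.52 and -2.31 in KPC replicates 1 and 2 of day 26 and at -0.28 in replicate 3.

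Genes of cholesterol synthesis and uptake were lower in KPC at both days and made up 12 of the 29 kept genes that were lower in KPC. Of 24 members tested, 19 were called lower at day 26 (25.3% of all genes called in either direction), 12 at day 21 (1.10%) and none higher at either day. Fitted alone, day 21 gave 20 of 23 lower and none higher (12.5%). The median log2 fold change of the list was -1.34 at day 26 and -1.80 at day 21, beside 0.00 and 0.01 over all genes. The mean of the list in each KPC library lay below the controls of its day by log2 differences of -1.26, -1.88 and -1.03 at day 26 and -1.42, -1.85 and -1.42 at day 21, in replicate order. Hmgcs1 encodes the synthase that makes HMG-CoA for sterol synthesis, and Socs3, Mt1 and Tef, described below, stand for 3 other pathways. The promoter of Hmgcs1 is shown because sterol genes share binding sites for SREBP factors. It is the window of 250 bases before to 50 bases after the start, from RefSeq (GRCm38.p6, chr13:119690101-119690400, plus strand), with the sterol regulatory element letters TCACCCCAC in capitals.
Hmgcs1: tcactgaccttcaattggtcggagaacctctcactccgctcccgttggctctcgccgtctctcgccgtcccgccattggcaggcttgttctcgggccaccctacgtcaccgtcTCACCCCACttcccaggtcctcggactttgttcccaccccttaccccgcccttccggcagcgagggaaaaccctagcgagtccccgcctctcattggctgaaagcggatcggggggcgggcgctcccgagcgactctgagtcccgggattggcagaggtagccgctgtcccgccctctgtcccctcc
These letters begin 137 bases before the start. They were found on either strand in 0.551% of 32851 promoter windows, and among the 16 list members with a window in Hmgcs1 alone. A match is a description of the sequence and not evidence of binding.

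Sqle had 8.25, 5.0 and 12.7 CPM in the KPC libraries of day 26 against 35.5, 26.7, 56.0 and 67.6 CPM in the controls, and 6.41, 8.72 and 9.79 CPM in the KPC libraries of day 21 against 68.0, 62.8 and 41.1 CPM in the controls. Every KPC library was below every control of its day. For Sqle, squalene epoxidase, its log2 fold change was -2.42 ± 0.38 (SE, edgeR adjusted p 0.00607) at day 26 and -2.78 ± 0.39 (edgeR adjusted p 0.00746) at day 21, a difference of 0.36 with a 95% interval of -0.74 to 1.47. At day 26 Hmgcs1 stood at 27.0, 23.2 and 38.7 CPM in KPC and 118, 78.4, 109 and 159.9 CPM in controls, and at day 21 at 33.8, 24.0 and 43.3 CPM in KPC and 179, 179 and 93.3 CPM in controls. The groups did not overlap at either day. For Hmgcs1 its log2 fold change was -1.97 ± 0.31 (SE, edgeR adjusted p 0.00607) at day 26 and -2.15 ± 0.33 (edgeR adjusted p 0.00875) at day 21, a difference of 0.18 with a 95% interval of -0.75 to 1.11. Other members called lower at both days, given as log2 fold changes at day 26 and day 21, included Cyp51 (-2.10 and -2.36), lanosterol demethylase, Fdps (-2.19 and -2.14), farnesyl diphosphate synthase, Msmo1 (-2.26 and -1.92), a sterol methyl oxidase, Mvd (-1.47 and -2.24), mevalonate decarboxylase, and Stard4 (-1.53 and -1.95), a sterol transporter. Srebf2, which encodes SREBP2, was itself kept, with log2 fold changes of -1.05 at day 26 and -1.29 at day 21. Lss, lanosterol synthase, was not called at either day (-0.28 at day 26 and -0.71 at day 21). Of the 24 members, 16 were kept in the 12-library fit (5.63% of all genes) and 1 grew (19.2%).

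Fatty acid synthesis genes showed a smaller shift of the same direction. Of 13 members 7 were called lower at day 26 and 5 at day 21, and 4 were kept, namely Fasn, Scd2, Fads1 and Fads2. The median of the list was -0.52 at day 26 and -0.49 at day 21. Scd2, a stearoyl-CoA desaturase, had log2 fold changes of -1.21 at day 26 and -1.59 at day 21. Its paralog Scd1 was not called at either day (-0.33 at day 26 and -0.49 at day 21). Srebf1, whose product drives fatty acid genes, was called lower only at day 21 (-0.19 at day 26 and -0.71 at day 21), and the difference between the days of 0.52 (95% interval 0.13 to 0.92, edgeR adjusted p 0.513) did not pass.

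Genes of the interleukin-6 and STAT3 pathway were higher in KPC at both days. Of 26 members tested, 20 were called higher and 1 lower at day 26, 9 higher and 1 lower at day 21, and 8 were kept. The fit of day 21 alone called 19 of 24 higher and 1 lower (12.5% of all genes called). The medians were 1.82 at day 26 and 1.74 at day 21. By library the list stood above the controls by 2.94, 1.93 and 0.70 at day 26 and 1.62, 2.18 and 1.71 at day 21. Of the ligands, Il6 had 125, 61.3 and 18.0 CPM in the KPC libraries of day 26 against 24.9, 39.3, 12.7 and 12.9 CPM in the controls, and 39.9, 35.6 and 38.7 CPM in KPC against 1.48, 2.60 and 2.90 CPM in the controls at day 21. KPC replicate 3 lay inside the control range at day 26, where the controls themselves were above those of day 21, and the groups did not overlap at day 21. For Il6 its log2 fold change was 1.61 ± 0.54 (SE, edgeR adjusted p 0.0467) at day 26 and 4.03 ± 0.67 (edgeR adjusted p 0.0176) at day 21, a difference of -2.43 with a 95% interval of -4.25 to -0.60, and the gene was kept in the 12-library fit and faded in the fit of number 227. Lif, another ligand of the family, was lower in KPC at both days (-0.53 at day 26 and -1.22 at day 21). Of the receptors, Osmr had 283, 400.1 and 231 CPM in the KPC libraries of day 26 against 83.9, 94.5, 82.5 and 78.7 CPM in the controls, and 189, 309.9 and 287 CPM in the KPC libraries of day 21 against 62.9, 73.7 and 76.7 CPM in the controls. Osmr, the oncostatin M receptor, had the KPC libraries above all controls at both days. For Osmr its log2 fold change was 1.84 ± 0.20 (SE, edgeR adjusted p 0.00228) at day 26 and 1.88 ± 0.22 (edgeR adjusted p 0.00259) at day 21, a difference of -0.04 with a 95% interval of -0.66 to 0.58.

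Downstream of the receptors, Socs3, the feedback inhibitor of STAT3, and the acute phase genes were followed. At day 26 Socs3 stood at 7483, 5646 and 1589 CPM in KPC and 1676, 1545, 1161 and 974 CPM in controls, and at day 21 at 1828, 1848 and 1532 CPM in KPC and 440.1, 526 and 354 CPM in controls. KPC replicate 3 overlapped the controls at day 26 and no KPC library did at day 21. For Socs3 its log2 fold change was 1.87 ± 0.39 (SE, edgeR adjusted p 0.00986) at day 26 and 1.98 ± 0.43 (edgeR adjusted p 0.0465) at day 21, a difference of -0.11 with a 95% interval of -1.33 to 1.11. The Socs3 promoter holds 1 match to the STAT letters TTCNNNGAA, shown in capitals in the RefSeq window (GRCm38.p6, chr11:117969317-117969616, minus strand).
Socs3: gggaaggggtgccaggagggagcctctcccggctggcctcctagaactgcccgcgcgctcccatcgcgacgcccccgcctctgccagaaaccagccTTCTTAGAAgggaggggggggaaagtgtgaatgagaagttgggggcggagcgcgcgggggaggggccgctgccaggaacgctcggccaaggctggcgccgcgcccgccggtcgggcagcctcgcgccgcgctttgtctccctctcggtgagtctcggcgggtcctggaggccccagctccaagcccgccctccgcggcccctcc
The match begins 154 bases before the start. Such letters lie in 8.30% of all windows on either strand, and in 2 of the 23 list members with a window, Socs3 and Steap4. For Serpina3n the KPC libraries gave 1695, 1387 and 345 CPM and the controls 119, 96.0, 97.8 and 225 CPM at day 26, with 454, 1027 and 605 CPM in KPC and 74.7, 93.7 and 91.2 CPM in controls at day 21. All KPC libraries exceeded all controls at both days, with KPC replicate 3 nearest to them at day 26. For Serpina3n, a secreted serine protease inhibitor of the acute phase, its log2 fold change was 3.09 ± 0.49 (SE, edgeR adjusted p 0.00611) at day 26 and 3.01 ± 0.54 (edgeR adjusted p 0.0239) at day 21, a difference of 0.08 with a 95% interval of -1.42 to 1.58. Its close relatives can share reads, so the value may hold more than 1 gene of the family. Stat3 was called at day 26 only, with log2 fold changes of 1.68 at day 26 and 0.85 at day 21, and it grew in the 12-library fit by 1.14 ± 0.21 (SE, edgeR adjusted p 0.00208). Lrg1, a secreted acute phase glycoprotein, had 95.4, 14.3 and 5.42 CPM in the KPC libraries of day 26 against 0.419, 0.487, 0.466 and 0.142 CPM in the controls, and 29.2, 12.4 and 5.68 CPM in KPC against 1.32, 0.605 and 0.398 CPM in the controls at day 21. The KPC libraries were above the controls at both days, and the call was made at day 26 (log2 fold change 6.64, SE 1.03, edgeR adjusted p 0.00611) and not at day 21 (edgeR adjusted p 0.0743).

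Of the complement genes, 2 of 19 were kept in the 13 libraries and none grew. In the 12-library fit 2 of 20 were kept and 1 faded, beside the grown members given below. C4b was among the genes kept in the 13 libraries. C4b had 1787, 1847 and 1536 CPM in the KPC libraries of day 26 against 390.1, 352, 319 and 899 CPM in the controls, and 2008, 3599 and 2665 CPM in the KPC libraries of day 21 against 453, 471 and 606 CPM in the controls. The KPC libraries lay above all controls at both days, control replicate 4 of day 26 being the highest control. For C4b, a component of the classical pathway, its log2 fold change was 1.81 ± 0.33 (SE, edgeR adjusted p 0.0072) at day 26 and 2.44 ± 0.37 (edgeR adjusted p 0.0084) at day 21, a difference of -0.62 with a 95% interval of -1.66 to 0.42, and the near-identical C4a may share its reads. Over 19 members tested, 5 were called higher and 1 lower at day 26, 3 higher and none lower at day 21, with medians of 0.40 and 0.65. When day 21 was fitted alone, 8 of 18 were called higher and 1 lower (12.5% of all genes called). In the 12-library fit 9 of 20 members grew (19.2% of all genes). By library the complement list was off the controls by 0.96, 0.20 and 0.28 at day 26 and 0.92, 1.05 and 0.79 at day 21. Of the grown members, 8 grew in the lower direction, namely C1ra, C1s1, C1rl, C3, C7, Cfb, Cd55 and Colec12, while Masp1 grew in the higher. C3, the central component, had 3064, 4086 and 12951 CPM in the KPC libraries of day 26 and 8571, 9974, 7579.5 and 15005 CPM in the controls, so that KPC replicate 3 lay among the controls and the others below them. At day 21 C3 had 14526, 14443 and 13549 CPM in KPC and 9467, 7916 and 10195 CPM in controls, and neither day was called in the 13 libraries. Grown for C3 is therefore a turn, from above the controls at day 21 to below them in KPC replicates 1 and 2 of day 26.

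Among chemokines and NF-kappaB genes, 9 of 27 were called higher at day 26, 3 at day 21 and none lower at either day, beside 25.3% and 1.10% of all genes called in either direction. When day 21 was fitted alone, 14 of 26 were called higher and none lower, beside 12.5% of all genes called. The median was 0.38 at day 26 and 0.73 at day 21, and the list stood above the controls by 1.42, 0.20 and 0.00 at day 26 and 1.21, 0.95 and 0.78 at day 21. Cxcl12, the ligand of CXCR4, and Nfkbia, the inhibitor of NF-kappaB, were kept. At day 26 Cxcl12 stood at 483, 416 and 387 CPM in KPC and 247, 278, 240.3 and 282 CPM in controls, and at day 21 at 568, 703 and 653 CPM in KPC and 251, 278 and 231 CPM in controls. The groups were separate at both days. For Cxcl12 its log2 fold change was 0.71 ± 0.14 (SE, edgeR adjusted p 0.0077) at day 26 and 1.34 ± 0.15 (edgeR adjusted p 0.00259) at day 21, a difference of -0.63 with a 95% interval of -1.06 to -0.20, and it faded in the 12-library fit but was kept in the fit of number 227. Cxcl13, a B cell attractant, was called at day 26 (log2 fold change 2.89, SE 0.63, edgeR adjusted p 0.0123) and not at day 21 (log2 fold change 3.02, SE 0.71, edgeR adjusted p 0.0708). Ccl2, the monocyte attractant, was not called at either day (0.88 at day 26 and 0.09 at day 21). The macrophage and monocyte markers summed to 489, 47.0 and 28.3 CPM in the KPC libraries of day 26 against 19.7 to 31.2 CPM in the controls, and to 109, 46.1 and 25.5 CPM against 17.5 to 31.2 CPM at day 21. Their part in the cytokine values was not tested.

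Immediate-early genes, which respond to stimulation within minutes and include many transcription factors, were higher in KPC at both days. Of 27 members 13 were called higher at day 26, 9 at day 21 and none lower, with 7 kept and medians of 0.76 and 1.06. Fitted alone, day 21 gave 21 of the 27 higher and none lower (12.5% of all genes called). The list lay above the controls by 1.11, 0.99 and 0.34 at day 26 and 1.07, 1.13 and 1.10 at day 21. For Myc the KPC libraries gave 1124, 908 and 327 CPM and the controls 269, 285, 216 and 153 CPM at day 26, with 331, 352 and 324 CPM in KPC and 93.7, 87.2 and 98.4 CPM in controls at day 21. KPC replicate 3 was nearest to the controls at day 26, and the groups did not overlap at either day. For Myc its log2 fold change was 1.77 ± 0.32 (SE, edgeR adjusted p 0.0072) at day 26 and 1.85 ± 0.35 (edgeR adjusted p 0.0289) at day 21, a difference of -0.08 with a 95% interval of -1.10 to 0.94. Junb was kept with log2 fold changes of 1.30 at day 26 and 1.60 at day 21, and shares exon bases with Prdx2. Fos was kept in the 13 libraries (0.58 at day 26 and 1.55 at day 21) with a difference of -0.97 (95% interval -1.56 to -0.37, edgeR adjusted p 0.513), while the 12-library fit placed it among the faded genes at -1.05 ± 0.24 (SE, edgeR adjusted p 0.0076).

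**Figure D3:**
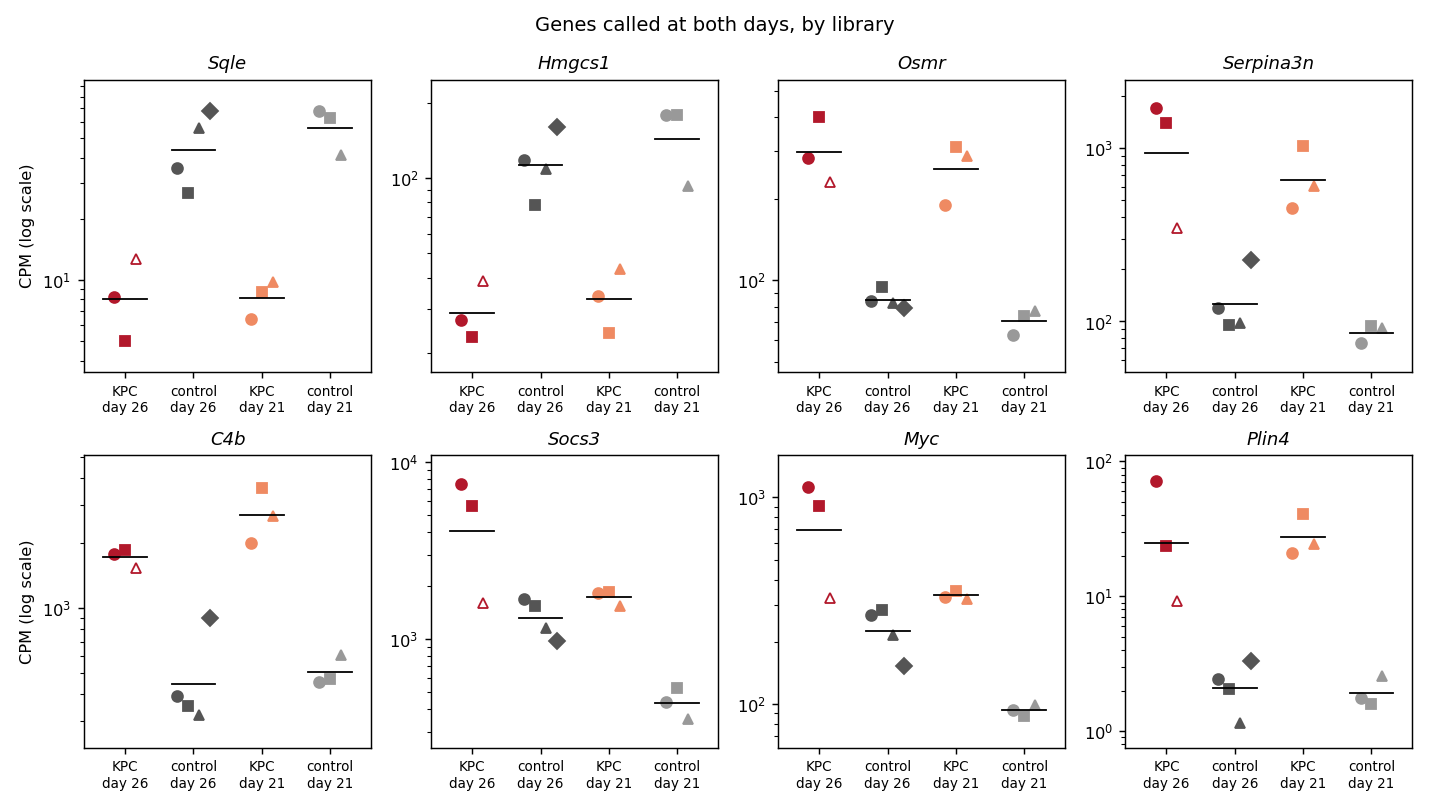
CPM of 8 genes called at both days in the 13 libraries, on a log scale, by group, with 1 marker shape per replicate, KPC replicate 3 of day 26 hollow and bars at geometric means. Sqle stood at 5.0 to 12.7 CPM in KPC and 26.7 to 67.6 CPM in controls at day 26, and the groups overlapped for Socs3 alone among the 8, at day 26.

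Lipid storage genes were higher in KPC at both days, with a wide spread between libraries. Of 19 members tested, 12 were called higher at day 26, 3 at day 21 and none lower, with medians of 1.64 and 1.11. When day 21 was fitted alone, 9 of 17 were called higher and none lower (12.5% of all genes called). The list lay above the controls by 2.89, 1.57 and 0.25 at day 26 and 1.55, 1.48 and 1.13 at day 21. Plin4 had 72.1, 23.5 and 9.24 CPM in the KPC libraries of day 26 against 2.46, 2.05, 1.16 and 3.32 CPM in the controls, and 21.1, 40.7 and 24.3 CPM in the KPC libraries of day 21 against 1.75, 1.58 and 2.58 CPM in the controls. All KPC libraries were above all controls at both days. For Plin4, a protein that coats lipid droplets, its log2 fold change was 3.97 ± 0.60 (SE, edgeR adjusted p 0.00607) at day 26 and 3.85 ± 0.67 (edgeR adjusted p 0.0202) at day 21, a difference of 0.11 with a 95% interval of -1.73 to 1.96. Lpl, the lipase that takes up triglyceride fatty acids, was also kept (0.78 at day 26 and 1.03 at day 21). Of 4 mature adipocyte markers tested 3 were called higher at day 26 and none at day 21. These markers summed to 453, 19.6 and 0.854 CPM in the KPC libraries of day 26 against 0.0949 to 0.698 CPM in the controls, and to 6.51, 8.22 and 6.92 CPM in KPC against 0.512 to 1.03 CPM in controls at day 21. All KPC libraries had sums above those of all controls at both days. At day 26 KPC replicate 3 (0.854 CPM) exceeded the highest control, replicate 3 (0.698 CPM), on few reads. In these 2 libraries 3 counts correspond to 0.151 and 0.116 CPM. Their part in the lipid values was not tested.

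The lists of collagen chains and of Dpp4 and Pi16 type FAP genes had means below the controls in all 6 KPC libraries. Their shift was far larger in KPC replicates 1 and 2 of day 26. Of 21 collagen chains tested, 4 were called lower at day 26 in the 13 libraries and none at day 21 (25.3% and 1.10% of all genes), with medians of -1.49 and -0.98. The fit of day 21 alone called 14 of 21 lower (12.5% of all genes called). The list differed from the controls by -2.52, -2.31 and -0.28 at day 26 and -0.54, -1.26 and -0.69 at day 21. In the 12-library fit 12 of the 21 chains grew, all lower (19.2% of all genes), namely Col1a1, Col1a2, Col3a1, Col5a1, Col5a2, Col5a3, Col6a1, Col6a2, Col6a3, Col14a1, Col15a1 and Col18a1. At day 26 Col3a1 stood at 766, 1166 and 11906 CPM in KPC and 25560.0, 16500.0, 19971 and 25314 CPM in controls, and at day 21 at 10297, 4249 and 5904 CPM in KPC and 23904, 19867 and 25857 CPM in controls. KPC replicates 1 and 2 of day 26 were far below every other library, while KPC replicate 3 was below its lowest control and above the KPC libraries of day 21. Col3a1 encodes a fibrillar collagen of soft tissue; its log2 fold change was -2.24 ± 0.78 (SE, edgeR adjusted p 0.0512) at day 26 and -1.77 ± 0.79 (edgeR adjusted p 0.283) at day 21, a difference of -0.48 with a 95% interval of -2.76 to 1.81. Without KPC replicate 3 the difference between the days was -2.73 ± 0.44 (SE, edgeR adjusted p 0.00094). For Col1a1 the KPC libraries gave 345, 564 and 5873 CPM and the controls 10639, 6464, 8464 and 8937 CPM at day 26, with 5534, 3397 and 3802 CPM in KPC and 9852, 8882 and 11423 CPM in controls at day 21. The order was the same, and the 12-library difference was -3.01 ± 0.36 (SE, edgeR adjusted p 0.000165). At the 12-library difference Col6a2, a chain of microfibrillar collagen, moved by -2.08 and Fbn1, which encodes fibrillin, by -1.34, both grown.

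Other matrix lists had smaller shifts. Of 34 non-collagen matrix genes, 2 were called higher and 9 lower at day 26 (25.3% of all genes) and none at day 21 in the 13 libraries. When day 21 was fitted alone, 4 were called higher and 14 lower (12.5% of all genes called). In the 12 libraries 17 grew (19.2% of all genes), 3 higher and 14 lower, and the list differed from the controls by -1.39, -0.80 and -0.24 at day 26 and -0.27, -0.36 and -0.14 at day 21. Of 31 matrix processing genes, 4 were called higher and 10 lower at day 26, 1 higher at day 21, and 12 grew, 2 higher and 10 lower. Day 21 fitted alone called 6 of the 31 higher and 10 lower. That list differed from the controls by -0.16, -0.37 and -0.14 at day 26 and 0.23, 0.08 and 0.04 at day 21. The 13-library medians of the 2 lists, in that order, were -0.70 and -0.37 at day 26 and -0.26 and -0.08 at day 21.

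Genes that mark the Dpp4 and Pi16 type of FAP, described as the more uncommitted state, had a list mean below the controls in every KPC library. Of 17 members 1 was called higher and 7 lower at day 26 and none at day 21 in the 13 libraries. Day 21 fitted alone called 11 of the 17 lower and none higher (12.5% of all genes called). In the 12-library fit 11 were also called lower at day 21, and 15 of 17 grew (19.2% of all genes), all in the lower direction. The list differed from the controls by -2.96, -2.58 and -0.51 at day 26 and -0.73, -1.26 and -0.94 at day 21. Pi16 had 108, 265 and 2544 CPM in the KPC libraries of day 26 against 3911, 3684, 3567 and 3217 CPM in the controls, and 1881, 1211 and 1638 CPM in the KPC libraries of day 21 against 4016, 3421 and 3982 CPM in the controls. KPC replicates 1 and 2 of day 26 stood lowest of the 13 libraries and KPC replicate 3 below its controls and above the KPC libraries of day 21. Pi16 encodes a secreted peptidase inhibitor; its log2 fold change was -1.89 ± 0.79 (SE, edgeR adjusted p 0.0915) at day 26 and -1.27 ± 0.80 (edgeR adjusted p 0.445) at day 21, a difference of -0.61 with a 95% interval of -2.98 to 1.75, and without KPC replicate 3 the difference was -3.0 ± 0.39 (SE, edgeR adjusted p 0.000269). For Cd248 the KPC libraries gave 60.0, 54.6 and 979 CPM and the controls 1621, 1461, 1675 and 1736 CPM at day 26, with 752, 345 and 524 CPM in KPC and 1724, 1669 and 1668 CPM in controls at day 21. Cd248, a stromal surface glycoprotein, had the same order, and its 12-library difference was -3.19 ± 0.32 (SE, edgeR adjusted p 5.2e-05). Igfbp5, a secreted binding protein of insulin-like growth factors, was called lower at day 26 in the 13 libraries (log2 fold change -1.87, SE 0.60, edgeR adjusted p 0.0399). At day 26 Igfbp5 stood at 272, 241 and 1990.5 CPM in KPC and 3029, 3281, 2777 and 3151 CPM in controls, and at day 21 at 1277, 896 and 1200.0 CPM in KPC and 2576, 3052 and 3001 CPM in controls. Dpp4 itself, a surface peptidase, was not called at either day in the 13 libraries (-1.04 at day 26 and -0.12 at day 21) and grew by -1.59 in the 12.

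Markers of the Cxcl14 and Smoc2 type of FAP moved in both directions. Of its 17 genes 7 were called higher at day 26, 2 at day 21 and none lower in the 13 libraries, with medians of 0.32 and 0.36. Fitted alone, day 21 gave 8 of the 17 higher and 1 lower (12.5% of all genes called). In the 12-library fit 7 were called higher and 7 lower at day 26 (50.8% of all genes), with a median of -0.03, and 6 grew, 1 higher (Apod) and 5 lower. Its mean was off the controls by -0.37, 0.08 and 0.41 at day 26 and 0.23, 0.37 and 0.48 at day 21. Cxcl14, a chemokine of that state, was called at day 26 (log2 fold change 0.63, SE 0.20, edgeR adjusted p 0.0335) and missed the threshold at day 21 (edgeR adjusted p 0.0898). General identity genes such as Pdgfra, Cd34 and Osr1 gave 4 of 20 called lower at day 26 and none at day 21 in the 13 libraries, with medians of -0.54 and -0.17. The fit of day 21 alone called 1 of these 20 genes higher and 4 lower. With 12 libraries 13 of them were called lower and none higher at day 26, and 7 grew, all lower, Ly6a, Cd34 and Osr1 among them. By library the identity list differed from the controls by -1.03, -0.91 and -0.10 at day 26 and -0.05, -0.40 and -0.17 at day 21. Pdgfra itself had log2 fold changes of -0.01 at day 26 and 0.09 at day 21, with an interval of the difference of -0.55 to 0.36.

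Apod, Igfbp3 and Pnpla2 were among the genes with larger KPC excess at day 26. Igfbp3 had 9152, 11534 and 215 CPM in the KPC libraries of day 26 against 125, 190.4, 116 and 70.1 CPM in the controls, and 949.7, 1960.5 and 698 CPM in the KPC libraries of day 21 against 193, 212 and 245 CPM in the controls. KPC replicates 1 and 2 of day 26 were the highest of the 13 libraries, and KPC replicate 3 was just above its highest control. Igfbp3 encodes the main circulating carrier of insulin-like growth factors; its log2 fold change was 5.79 ± 0.95 (SE, edgeR adjusted p 0.0067) at day 26 and 2.47 ± 0.93 (edgeR adjusted p 0.219) at day 21, a difference of 3.32 with a 95% interval of 0.65 to 6.00. Without KPC replicate 3 the difference was 3.89 ± 0.56 (SE, edgeR adjusted p 0.00102). For Apod the KPC libraries gave 17659, 10999 and 2189 CPM and the controls 562, 720.1, 527 and 929.7 CPM at day 26, with 2591, 5369 and 4536 CPM in KPC and 766, 848 and 699 CPM in controls at day 21. For Apod, a lipid-binding apolipoprotein, all KPC libraries were above all controls at both days, KPC replicate 3 of day 26 included. The difference between the days was 1.47 (95% interval -0.10 to 3.05, edgeR adjusted p 0.534) in 13 libraries and 1.95 ± 0.39 (SE, edgeR adjusted p 0.00385) in 12. At day 26 Pnpla2 stood at 442, 366 and 40.8 CPM in KPC and 38.2, 34.2, 29.9 and 32.7 CPM in controls, and at day 21 at 49.2, 83.2 and 52.0 CPM in KPC and 34.7, 35.4 and 37.1 CPM in controls. For Pnpla2, the adipose triglyceride lipase, KPC replicate 3 stood just above its highest control while KPC replicates 1 and 2 stood far above it, and the 12-library difference was 2.80 ± 0.24 (SE, edgeR adjusted p 2.8e-05). Further named genes with a grown excess in the 12 libraries were Plxnb1 (3.65), a semaphorin receptor, Epha2 (3.69), an ephrin receptor, Sphk1 (3.4), a sphingosine kinase, Arc (2.92) and Aspg (3.37), each with its difference of log2 fold changes. Adamts16, a metalloprotease, Il18r1 and Mgam had 0 counts in KPC replicates 1 and 2 of day 26, where 3 counts correspond to 0.165 and 0.171 CPM. Adamts16 had 0, 0 and 47.5 CPM in the KPC libraries of day 26 against 109, 90.0, 103 and 50.4 CPM in the controls, and 24.4, 4.24 and 12.6 CPM in KPC against 68.0, 74.0 and 83.8 CPM in the controls at day 21.

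Glucocorticoid response genes were higher in KPC at both days, with the larger list median at day 26. Of 23 members 20 were called higher and 1 lower at day 26, 4 higher and none lower at day 21, and Klf9, Mt2 and Sult1a1 were kept. The fit of day 21 alone called 15 of the 23 higher and none lower (12.5% of all genes called). The medians were 2.01 at day 26 and 1.13 at day 21, and the list lay above the controls by 2.07, 2.24 and 0.81 at day 26 and 1.20, 1.33 and 1.17 at day 21. KPC replicate 3 thus had the smallest list difference of the 6 KPC libraries. In the 12-library fit 9 of 23 grew, all higher (19.2% of all genes), namely Fkbp5, Zbtb16, Sgk1, Klf15, Mt1, Mt2, Glul, Map3k6 and Arrdc2. The Mt1 promoter is shown for its match to the receptor letters ACANNNTGT, in capitals (RefSeq, GRCm38.p6, chr8:94178839-94179138, plus strand).
Mt1: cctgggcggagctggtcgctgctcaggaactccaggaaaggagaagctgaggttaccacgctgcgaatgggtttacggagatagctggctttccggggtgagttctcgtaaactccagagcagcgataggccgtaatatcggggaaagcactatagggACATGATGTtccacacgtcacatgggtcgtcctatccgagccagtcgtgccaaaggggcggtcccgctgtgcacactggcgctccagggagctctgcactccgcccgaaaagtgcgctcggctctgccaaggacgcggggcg
The letters begin 92 bases before the start. They lie in 6.85% of all windows on either strand and in 4 of the 17 list members with a window, Sgk1, Mt1, Glul and Map3k6. For Mt1 the KPC libraries gave 4165, 2592 and 773 CPM and the controls 386, 375, 286 and 246 CPM at day 26, with 515, 743 and 622 CPM in KPC and 202, 230.0 and 167 CPM in controls at day 21. All KPC libraries of Mt1, a metallothionein, were above all controls at both days. For Mt1 its log2 fold change was 2.96 ± 0.41 (SE, edgeR adjusted p 0.00514) at day 26 and 1.65 ± 0.44 (edgeR adjusted p 0.0972) at day 21, a difference of 1.31 with a 95% interval of 0.04 to 2.57, and without KPC replicate 3 the difference was 1.73 ± 0.31 (SE, edgeR adjusted p 0.00173). Fkbp5 had 430.3, 497 and 169 CPM in the KPC libraries of day 26 against 86.6, 75.9, 106 and 114 CPM in the controls, and 185, 165 and 79.3 CPM in the KPC libraries of day 21 against 93.2, 75.7 and 74.9 CPM in the controls. Fkbp5, the receptor's co-chaperone, had no overlap at day 26 and overlapping groups at day 21. Its difference between the days was 1.12 (95% interval 0.04 to 2.2, edgeR adjusted p 0.523) in 13 libraries and 1.46 ± 0.37 (SE, edgeR adjusted p 0.0164) in 12. Tsc22d3, which encodes the anti-inflammatory mediator GILZ, was called at day 26 only (1.76 at day 26 and 0.98 at day 21) and did not grow in the 12-library fit (edgeR adjusted p 0.19). Angptl4, an inhibitor of lipoprotein lipase, was called at day 21 only (0.76 at day 26 and 3.01 at day 21), with a difference of -2.25 (95% interval -3.74 to -0.76, edgeR adjusted p 0.513).

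In the 13 libraries, genes of autophagy and FoxO signalling, which govern protein breakdown, and p53 targets were called at day 26 alone. Whether the lists differed between the days was not tested. When day 21 was fitted alone, 9 of 27 autophagy and FoxO genes were called higher and none lower. In that fit 5 of 20 p53 targets were called higher and 1 lower, beside 12.5% of all genes called. Of 28 autophagy and FoxO genes 16 were called higher and 2 lower at day 26 and none at day 21 in the 13 libraries, with medians of 0.85 and 0.34. The list differed from the controls by 0.94, 1.03 and 0.06 at day 26 and 0.13, 0.55 and 0.41 at day 21, so KPC replicate 3 of day 26 was at the control level. In the 12 libraries 14 members grew (19.2% of all genes), 12 of them higher. Ulk1, the kinase that starts autophagy, grew by 1.44 ± 0.31 (SE, edgeR adjusted p 0.00671). At day 26 Ulk1 stood at 158, 211 and 63.3 CPM in KPC and 48.0, 52.8, 44.3 and 42.9 CPM in controls, and at day 21 at 48.9, 102 and 67.8 CPM in KPC and 45.7, 46.6 and 58.6 CPM in controls. Of 20 p53 targets 8 were called higher and 2 lower at day 26 and none at day 21, and the list differed by 1.42, 0.95 and -0.03 at day 26 and 0.46, 0.71 and 0.45 at day 21. For Trp53inp1 the KPC libraries gave 343, 623 and 27.5 CPM and the controls 21.3, 17.9, 13.2 and 16.7 CPM at day 26, with 27.9, 114 and 53.9 CPM in KPC and 19.7, 19.1 and 19.3 CPM in controls at day 21. KPC replicates 1 and 2 stood far above every other library for Trp53inp1, a stress-induced autophagy and p53 cofactor, and KPC replicate 3 just above its controls. Its difference was 2.51 (95% interval 0.25 to 4.78, edgeR adjusted p 0.519) in 13 libraries and 3.06 ± 0.63 (SE, edgeR adjusted p 0.00959) in 12.

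Endoplasmic reticulum chaperones and interferon genes had members that grew in the 12-library fit, most of them in the lower direction. Of 25 unfolded protein and integrated stress response genes, 2 were called higher and 9 lower at day 26 and none at day 21 in the 13 libraries. Fitted alone, day 21 gave 1 of 24 higher and 7 lower. In the 12 libraries 9 grew (19.2% of all genes), with Hsp90b1, Pdia3, Pdia4, Pdia6, Calr, Canx and Atf5 lower and Atf4 and Sesn2 higher. The list differed from the controls by -0.19, -0.73 and -0.20 at day 26 and -0.06, -0.23 and 0.01 at day 21, so that KPC replicate 3 was as far below them as KPC replicate 1. Hsp90b1 had 415, 283 and 772 CPM in the KPC libraries of day 26 against 971, 886, 1077 and 977 CPM in the controls, and 819, 704 and 729 CPM in the KPC libraries of day 21 against 927, 799 and 787 CPM in the controls. KPC replicates 1 and 2 were below all controls of day 26 and KPC replicate 3 was below the lowest control by less. Hsp90b1 encodes the chaperone GRP94, and its difference was -1.33 ± 0.22 (SE, edgeR adjusted p 0.00113) in the 12 libraries. Of 30 interferon response genes 2 were called higher and 5 lower at day 26, which is below the share of all genes (25.3%), and 1 higher at day 21. The fit of day 21 alone called 5 of the 30 higher and 1 lower (12.5% of all genes called). With 12 libraries 12 grew (19.2% of all genes), 11 of them lower, and the list differed from the controls by -0.39, -0.69 and -0.10 at day 26 and 0.42, -0.04 and 0.08 at day 21, with the controls of day 26 between -0.29 and 0.22. B2m, the light chain of class I antigen presentation, had 345, 353 and 457 CPM in the KPC libraries of day 26 against 579.5, 530.3, 504 and 669 CPM in the controls, and 506, 538 and 489 CPM in KPC against 447, 454 and 449.8 CPM in controls at day 21. All KPC libraries were below all controls at day 26 and above them at day 21. The difference between the days was -0.75 (95% interval -1.21 to -0.29, edgeR adjusted p 0.513).

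**Figure D4:**
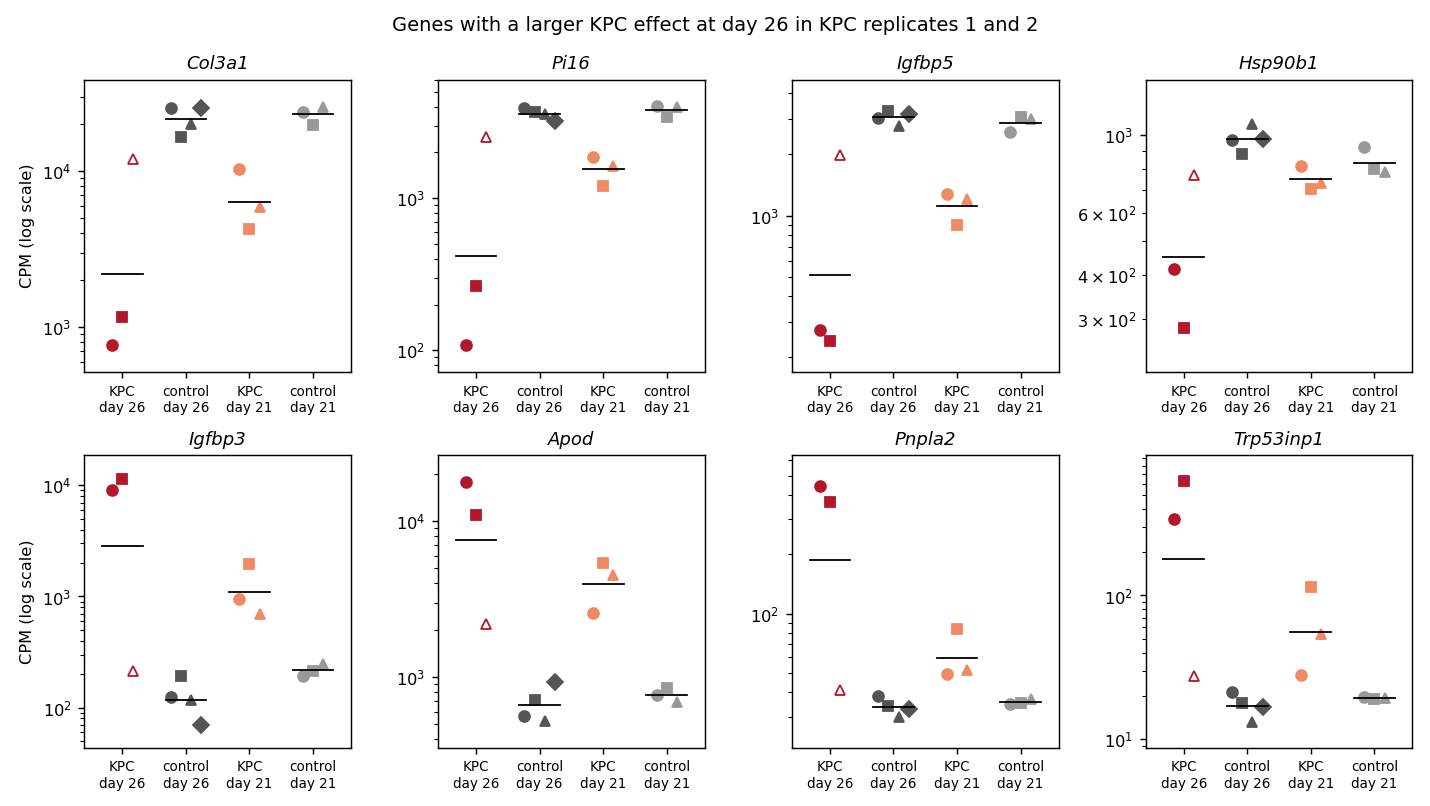
CPM of 8 genes whose KPC effect grew in the 12-library fit, on a log scale, by group, with 1 marker shape per replicate, KPC replicate 3 of day 26 hollow and bars at geometric means. For Col3a1 KPC replicates 1 and 2 of day 26 stood at 766 and 1166 CPM, KPC replicate 3 at 11906 CPM and the controls at 16500 CPM or more, and for Apod all KPC libraries of both days stood above the controls.

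Genes whose KPC excess was smaller at day 26 fell into those with raised controls and those with lower KPC libraries. Between the control groups 7 genes were called, all higher at day 26, namely Ptx3, Ptgs2, Nfkbiz, Has1, Tnfaip6, Nfkbia and Atf3. Their log2 differences, control day 26 over control day 21, were 3.48, 2.45, 2.16, 1.97, 1.88, 1.85 and 1.52, with edgeR adjusted p between 0.0044 and 0.0437. At day 26 Ptgs2 stood at 188, 237 and 261 CPM in KPC and 312, 523, 202 and 298 CPM in controls, and at day 21 at 271, 249 and 205 CPM in KPC and 51.7, 69.2 and 62.2 CPM in controls. The day 26 controls overlapped the KPC libraries of both days, and only the day 21 controls were low. For Ptgs2, the inducible cyclooxygenase, its log2 fold change was -0.55 ± 0.26 (SE, edgeR adjusted p 0.123) at day 26 and 1.99 ± 0.28 (edgeR adjusted p 0.00683) at day 21, a difference of -2.53 with a 95% interval of -3.35 to -1.71 and an edgeR adjusted p of 0.202 for the difference. It was -2.64 ± 0.42 (SE, edgeR adjusted p 0.00141) in the 12 libraries. Ptx3 had 273, 150.4 and 97.0 CPM in the KPC libraries of day 26 against 136, 148, 52.1 and 68.9 CPM in the controls, and 150.3, 176 and 152 CPM in the KPC libraries of day 21 against 7.58, 10.0 and 9.62 CPM in the controls. The day 21 controls were again the only low group. Ptx3 encodes a secreted pattern recognition protein; its log2 fold change was 0.78 ± 0.37 (SE, edgeR adjusted p 0.13) at day 26 and 4.14 ± 0.46 (edgeR adjusted p 0.00259) at day 21, a difference of -3.36 with a 95% interval of -4.60 to -2.11. For Has1 the KPC libraries gave 183, 147 and 214 CPM and the controls 205, 247, 131 and 170.3 CPM at day 26, with 174, 127 and 163 CPM in KPC and 46.6, 41.5 and 56.5 CPM in controls at day 21. For Has1, a hyaluronan synthase, the groups overlapped at day 26 and were separate at day 21, with a difference of -1.74 (95% interval -2.40 to -1.07, edgeR adjusted p 0.334). Nfkbiz, a nuclear regulator of NF-kappaB, differed by -1.43 (95% interval -2.26 to -0.59, edgeR adjusted p 0.513) and Tnfaip6, a hyaluronan-binding protein, by -1.74 (95% interval -2.60 to -0.88, edgeR adjusted p 0.438). Day and any processing that differed between the days cannot be told apart in a comparison of control groups.

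Between the KPC groups 4 genes were called, all lower at day 26, namely C2, Chrdl1, Gabra3 and Plac8. Their log2 differences, KPC day 26 over KPC day 21, were -1.32, -1.58, -1.79 and -1.49, each with an edgeR adjusted p of 0.0479. Chrdl1 had 34.7, 44.5 and 31.2 CPM in the KPC libraries of day 26 against 32.5, 37.1, 26.4 and 48.5 CPM in the controls, and 103, 116 and 110.4 CPM in the KPC libraries of day 21 against 24.1, 39.4 and 41.6 CPM in the controls. The 3 KPC libraries of day 21 stood above all others, and at day 26 KPC and control overlapped. For Chrdl1, a secreted inhibitor of bone morphogenetic proteins, its log2 fold change was 0.03 ± 0.22 (SE, edgeR adjusted p 0.934) at day 26 and 1.65 ± 0.24 (edgeR adjusted p 0.00702) at day 21, a difference of -1.62 with a 95% interval of -2.32 to -0.93. At day 26 Steap4 stood at 346, 393 and 656 CPM in KPC and 349, 327, 299 and 426 CPM in controls, and at day 21 at 716, 747 and 763 CPM in KPC and 289, 318 and 297 CPM in controls. KPC replicate 3 of day 26 lay above its controls and just below the KPC libraries of day 21, while KPC replicates 1 and 2 overlapped the controls. Steap4, a metalloreductase, faded in the 12-library fit at -1.23 ± 0.20 (SE, edgeR adjusted p 0.000984). C2, a complement component, faded there at -1.27 ± 0.24 (SE, edgeR adjusted p 0.00249), Wdr86 at -3.08 ± 0.64 (SE, edgeR adjusted p 0.00423) and Dnajb4, a heat shock cochaperone, at -0.89 ± 0.22 (SE, edgeR adjusted p 0.0116). Among genes lower in KPC at day 21, Hhipl1 (1.64), Kazn (1.16) and Col12a1 (0.83) faded, with the 12-library difference in parentheses. Of 18 heat shock genes 2 were called higher and 1 lower at day 26 and 1 higher at day 21.

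A smaller group of genes had opposite signs at the 2 days. The KPC libraries lay wholly on opposite sides of their controls at the 2 days for 60 of 13762 genes tested. Of these, 32 were higher in KPC at day 26 and 28 lower. By comparison, 1715 genes (12.5%) kept to the same side at both days. Whether 60 exceeds the number from a random arrangement of libraries was not tested. Without KPC replicate 3 of day 26, 24 of 14201 genes tested were called at both days with opposite signs. Among secreted factors these included Igfbp7, Fgf7, Fgf10 and Sfrp1, and of 36 such factors 6 were called higher and 8 lower at day 26 and 1 higher at day 21 in the 13 libraries. The fit of day 21 alone called 12 of the 36 higher and 6 lower (12.5% of all genes called). Fgf7 had 19.1, 27.5 and 71.6 CPM in the KPC libraries of day 26 against 52.2, 54.2, 40.5 and 48.5 CPM in the controls, and 55.2, 114 and 91.5 CPM in the KPC libraries of day 21 against 36.4, 52.4 and 42.8 CPM in the controls. KPC replicates 1 and 2 of day 26 were below their controls, while KPC replicate 3 was above them, like the KPC libraries of day 21 against theirs. Fgf7 is a growth factor for epithelium, and the 12-library difference was -2.06 ± 0.36 (SE, edgeR adjusted p 0.00203). Sfrp1, a secreted Wnt inhibitor, had the same order, with a 12-library difference of -1.38 ± 0.23 (SE, edgeR adjusted p 0.00118). In these genes KPC replicate 3 went against KPC replicates 1 and 2, and the 13-library differences of -1.30 (95% interval -2.50 to -0.09, edgeR adjusted p 0.523) for Fgf7 and -0.85 (95% interval -1.70 to 0.00, edgeR adjusted p 0.523) for Sfrp1 did not pass.

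The circadian clock list was higher in KPC at day 26 and near the controls at day 21. Of 20 members 13 were called higher and 1 lower at day 26, and 1 higher and none lower at day 21. The medians were 1.38 at day 26 and -0.03 at day 21, and the list differed from the controls by 1.03, 1.45 and 0.40 at day 26 and 0.10, 0.10 and 0.04 at day 21. In the 12-library fit Per3, Cry2, Nr1d1, Nr1d2, Dbp, Tef and Hlf grew in the higher direction and Npas2 in the lower. These are mostly output and repressor genes of the clock. Clock activators bind E-box letters, CACGTG, and the 2 RefSeq windows of Tef, a transcription factor of that output arm, are shown with the E-box in capitals (GRCm38.p6, chr15:81802423-81802722, plus strand and chr15:81811164-81811463, plus strand).
Tef first window: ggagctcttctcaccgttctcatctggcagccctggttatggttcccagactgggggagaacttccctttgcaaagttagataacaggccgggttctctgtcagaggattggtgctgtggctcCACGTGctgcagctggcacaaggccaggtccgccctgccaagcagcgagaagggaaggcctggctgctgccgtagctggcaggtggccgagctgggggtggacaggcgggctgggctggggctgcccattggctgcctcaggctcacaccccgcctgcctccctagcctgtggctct
Tef second window: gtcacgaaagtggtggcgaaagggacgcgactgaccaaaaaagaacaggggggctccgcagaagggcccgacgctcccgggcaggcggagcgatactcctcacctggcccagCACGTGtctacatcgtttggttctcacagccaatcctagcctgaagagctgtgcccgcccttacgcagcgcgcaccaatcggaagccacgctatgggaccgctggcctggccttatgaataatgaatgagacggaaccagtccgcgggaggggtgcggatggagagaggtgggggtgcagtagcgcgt
The E-boxes begin 127 and 138 bases before the start. The letters lie in 7.15% of all windows and in 5 of the 17 members with a window, Per1, Cry1, Tef, Bhlhe41 and Ciart. At day 26 Dbp stood at 13.4, 34.9 and 24.9 CPM in KPC and 5.45, 7.16, 4.11 and 12.8 CPM in controls, and at day 21 at 7.84, 6.23 and 4.77 CPM in KPC and 17.5, 12.7 and 24.1 CPM in controls. All KPC libraries of Dbp, another output factor, were above all controls at day 26 and below them at day 21. For Dbp its log2 fold change was 1.73 ± 0.39 (SE, edgeR adjusted p 0.0129) at day 26 and -1.53 ± 0.43 (edgeR adjusted p 0.115) at day 21, a difference of 3.25 with a 95% interval of 1.99 to 4.52, with an edgeR adjusted p of 0.334 for the difference. Nr1d1 had 189, 411 and 180.2 CPM in the KPC libraries of day 26 against 18.5, 59.9, 44.3 and 51.0 CPM in the controls, and 93.9, 116 and 62.7 CPM in the KPC libraries of day 21 against 117, 122 and 136 CPM in the controls. For Nr1d1, the repressor REV-ERB alpha, the same reversal of order held, and its log2 fold change was 2.58 ± 0.38 (SE, edgeR adjusted p 0.00581) at day 26 and -0.46 ± 0.40 (edgeR adjusted p 0.581) at day 21, a difference of 3.04 with a 95% interval of 1.84 to 4.25. All controls of day 26 were below those of day 21 for Nr1d1. For Dbp the control groups met, with control replicate 4 of day 26 at 12.8 CPM and control replicate 2 of day 21 at 12.7 CPM. DESeq2 called the difference for Dbp, Nr1d1, Per3 and Tef. For Tef the KPC libraries gave 185, 256 and 96.1 CPM and the controls 54.6, 64.5, 47.4 and 58.6 CPM at day 26, with 64.9, 75.3 and 62.1 CPM in KPC and 68.5, 74.7 and 96.9 CPM in controls at day 21. The Tef difference was 1.92 (95% interval 1.12 to 2.71, edgeR adjusted p 0.378) in 13 libraries and 2.22 ± 0.23 (SE, edgeR adjusted p 6.4e-05) in 12. Dbp shares exon bases with Sphk2 and Nr1d1 with Thra.

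**Figure D5:**
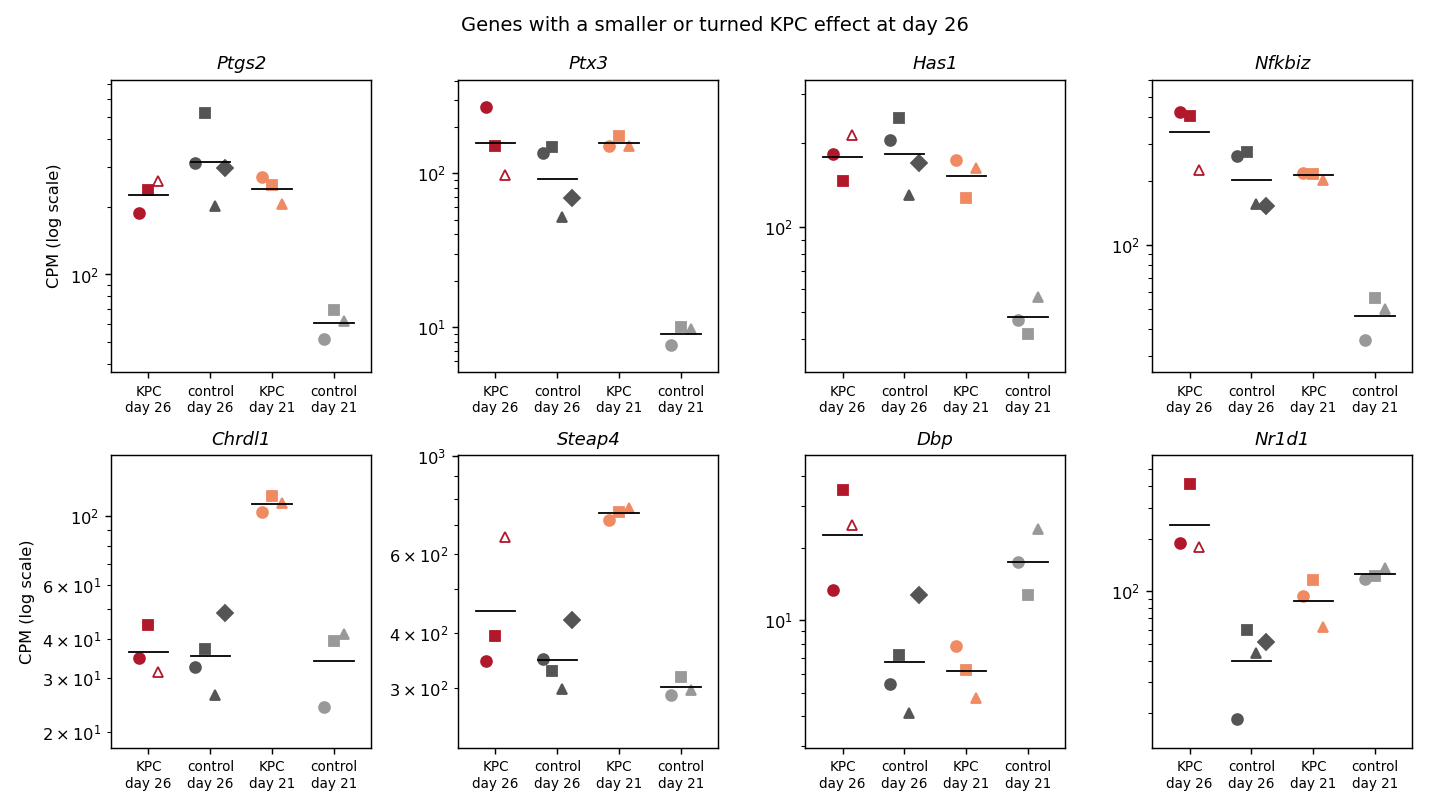
CPM of 8 genes with a smaller or turned KPC effect at day 26, on a log scale, by group, with 1 marker shape per replicate, KPC replicate 3 of day 26 hollow and bars at geometric means. For Ptgs2, Ptx3, Has1 and Nfkbiz the day 21 controls were the only low group, for Chrdl1 the KPC libraries of day 21 the only high group, and for Dbp and Nr1d1 the order of KPC and control was turned.

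Several lists had shares of called genes below or close to that of all genes, 25.3% at day 26 and 1.10% at day 21. Of 28 oxidative phosphorylation genes 3 were called lower at day 26 and none at day 21 (medians -0.14 and -0.15), of 30 proteasome genes 1 was called higher at day 26 and none at day 21 (medians -0.10 and -0.11). Of 22 genes of TGF-beta signalling and myofibroblasts, 3 were called higher and 2 lower at day 26 and none at day 21, with medians of 0.15 and 0.01. Of 29 cell cycle and replication genes 5 were called higher and 4 lower at day 26 and 1 higher, Myc, at day 21.

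Endothelial, macrophage, mural, glial, myofibre and neutrophil markers each had their highest sum in the first KPC library of each day. Of 12 endothelial markers 6 were called higher and 1 lower at day 26 and none at day 21 in the 13 libraries, while the fit of day 21 alone called 8 higher and 1 lower (12.5% of all genes). Their mean level differed from the controls by 3.52, 0.61 and 0.22 at day 26 and 2.43, 1.63 and 0.86 at day 21, while single controls of day 26 spread over -0.82 to 0.78 and those of day 21 over -0.06 to 0.04. On this mean level all KPC libraries of day 21 were above their controls. Pecam1, which encodes the sorted-out antigen CD31, stood at 238, 26.6 and 12.5 CPM in KPC and 12.8, 15.7, 4.46 and 7.17 CPM in controls at day 26. Of 15 macrophage and monocyte markers 8 were called higher at day 26 and none at day 21, and Ptprc, which encodes CD45, stood at 5.67, 0.114 and 0.502 CPM in KPC and 0.299, 0.779, 0.543 and 0.380 CPM in controls at day 26. The fit of day 21 alone called 2 of 12 macrophage and monocyte markers higher and none lower. Mural markers summed to 484, 57.7 and 150.2 CPM in KPC and 103 to 168 CPM in controls at day 26, with 2 of 10 called higher, and myofibre markers to 345, 127 and 97.2 CPM in KPC and 39.5 to 130.4 CPM in controls, with 2 of 15 called higher. Of 7 glial, 5 satellite cell and 7 neutrophil markers tested, 2, 1 and 0 were called higher at day 26, and of 4 epithelial markers none. Lymphocyte markers were below the filter in the 13 libraries, with sums of at most 3.66 CPM. Without the first KPC library of both days, an alternative added after the values were seen, 176 genes were kept, 1190 were called at day 26 and 350 at day 21. With the mean endothelial marker level as a covariate 32 genes were kept, 427 were called at day 26 and 65 at day 21.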

How the data were processed

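Male C57BL/6J mice with KPCY tumours or sham surgery gave sorted FAPs, and RNA of RIN 7 or more was made into stranded mRNA libraries read on a NextSeq 2000, per the labels. The authors deposited 1 table of raw counts per day, with whole-number read counts per gene symbol and library. The submitters' processing notes name bcl2fastq 2.20, Bowtie, STAR, R 4.2.1, DESeq2 1.36.0 and the build mm10, without their roles. Which program counted reads, on which strand setting and annotation, is not given in the sources used here. If strand was ignored, reads of overlapping genes on opposite strands cannot be told apart, and multi-mapping reads of close copies may be split or dropped.

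The day 21 and day 26 tables were joined on symbol, and 13 libraries in 4 groups were fitted together in R 4.3.3 with edgeR 4.0.16 (TMM factors, filterByExpr at its minimum count, 10, and minimum total, 15, robust quasi-likelihood fit, Benjamini-Hochberg adjustment over all genes tested, calls at an adjusted p under 0.05). The standard error is the size of the log2 fold change over the square root of F, and intervals are at 95%. CPM are counts scaled by TMM library size, and log2 CPM used a prior count of 2. limma 3.58.1 and DESeq2 1.42.0 were alternatives. Steps were tested on simulated data. Depths of 15706117 to 26395930 counts limit the precision of low genes.

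Same-numbered KPC and control libraries did not deviate together (r of 0.031, -0.062 and -0.008 at day 21 and 0.072, 0.048 and 0.138 at day 26), so numbers were not used as pairs. Named genes were, among genes of mean log2 CPM of at least 1, up to 10 per direction by called difference and by kept effect, up to 6 grown and 6 faded per direction, 2 members of each list (smallest p of the difference, highest level among day 21 calls), and a fixed list; parts with no gene in 13 libraries were taken from the 12-library fit. Nfkbia, Tnfaip6, Tef, Per3, Cry2, Nr1d1, Nr1d2, Fgf7, Fgf10, Sfrp1, Col1a2, Ulk1, B2m, Hsp90b1, Igfbp5, Fdps, Cyp51, Lss, Stard4, Stat3, C2, Lif, Gabra3 and Plac8 were chosen after their values were seen, although some also meet the rule, and a few genes that the rule names are not reported here. Members and lists were chosen with earlier results of these data known. Lists are described by counts and medians without set tests. Of 158 named genes 157 matched an mm10 annotation by symbol and 22 share exon bases with another symbol of the tables. The 7 libraries of the other day were used only in the fit of all 20.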

Additional observations from a re-analysis of the deposited data

Results flagged for a closer look

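For 60 of 13762 genes tested the KPC libraries lay wholly on opposite sides of their controls at the 2 days. Among named genes these were Dbp, Nr1d1, B2m and Gabra3, with differences between the days of 3.25, 3.04, -0.75 and -1.46 on the log2 scale. None of these differences passed the edgeR test in 13 libraries, where the adjusted p was 0.334 for Dbp, 0.363 for Nr1d1, 0.513 for B2m and 0.438 for Gabra3.

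Of 152 groups of 4 control libraries tested at day 26, 9 had 1 library far from the other 3 by Dixon's test, and chance gives about 1 in 20. Control replicate 4 was the high library for C4b (899 CPM), Chad (44.7 CPM), Cxcl13 (72.4 CPM), Fmod (264 CPM), H2-Q10 (2.85 CPM) and Psmb9 (17.9 CPM). Control replicate 2 was the high library for Myl1 (9.06 CPM). Control replicate 1 was the low library for Klf15 (8.15 CPM) and Zbtb16 (55.8 CPM). Control replicate 4 is the only control of day 26 with the number 235 in its code, and the part of that number was not tested.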

How the results depend on the processing

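The difference between the days was called for 0 genes in 13 libraries with TMM, relative log expression or library-size scaling, with no filter or at least 10 CPM in 3 libraries, and with limma-voom, and for 0 in all 20 libraries. It was called in 13 libraries for 33 genes by DESeq2, 769 by limma-voom with sample quality weights and 1 with the endothelial covariate, and for 2515 with number 227 alone at day 26. Day 26 calls, 3482 in 13 libraries, numbered 0 when the day was fitted alone, 6644 with number 227 alone, 427 with the covariate and 1190 without both first KPC libraries. Day 21 calls, 152, numbered 711 by DESeq2, 1882 with quality weights, 436 with all 20 libraries, 1639 alone, 1488 with number 227, 65 with the covariate and 350 without both first KPC libraries. Kept genes, 113, numbered 499 by DESeq2, 1208 with quality weights, 322 with all 20 libraries, 804 with number 227, 32 with the covariate and 176 without both first KPC libraries. Grown and faded genes, 0 each, numbered 15 and 13 by DESeq2, 712 and 34 with quality weights and 2398 and 55 with number 227, and the covariate gave 1 faded. Leaving out 1 library at a time gave 0 to 2880 differences, 734 to 7216 day 26 calls, 17 to 1485 day 21 calls, 12 to 800 kept, 0 to 2732 grown and 0 to 54 faded. The numbers did not pair the libraries, and with the replicate block 1 difference (faded, Ptx3), 1015 day 26 calls and 114 day 21 calls were made. The called difference without control replicate 3 of day 26 was Ptgs2, and the covariate called Ptx3. The causes of these moves were not tested. Among named genes, the difference of Il18r1 (0.81 in 13 libraries) ran between -8.46 and 1.85 and that of Mgam (0.04) between -7.66 and 0.62 when 1 library was left out, the lowest without KPC replicate 3 of day 26, and that of Il18r1 was -8.61 with number 227. Both genes have 0 counts in KPC replicates 1 and 2 of day 26, so these values are no bounds. The day 26 effect of Sfrp1 (0.01) ran between -0.52 and 0.32 and was -0.58 with number 227. Depth limits genes near the filter, where 3 counts correspond to 0.116 to 0.187 CPM.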

Other observations

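Ribosome biogenesis genes, whose products assemble ribosomes, had a list mean above the controls in KPC replicates 1 and 2 of day 26. Of 24 ribosome biogenesis genes 12 were called higher and none lower at day 26 and none at day 21 in the 13 libraries, beside 25.3% of all genes called in either direction at day 26. The medians were 0.53 at day 26 and 0.21 at day 21, and the list differed from the controls by 0.74, 0.45 and 0.03 at day 26 and 0.16, 0.31 and 0.19 at day 21, in replicate order. In the 12-library fit 8 of them grew in the higher direction. Of 28 cytosolic ribosomal proteins 4 were called higher at day 26, which is below the share of all genes, and none at day 21, with medians of 0.34 and 0.26. In the 12-library fit 19 of the 28 were called higher at day 26 and none lower, beside 50.8% of all genes called, and none grew. That list differed from the controls by 0.51, 0.39 and 0.03 at day 26 and 0.27, 0.25 and 0.22 at day 21. Of 21 genes of iron, haem and metal handling 9 were called higher and 1 lower at day 26 and 3 higher at day 21. Fitted alone, day 21 gave 5 of 20 higher and 3 lower (12.5% of all genes called). Alas2, the erythroid enzyme that starts haem synthesis, had 34.4, 21.6 and 2.71 CPM in the KPC libraries of day 26 against 0.659, 0.828, 0.272 and 2.14 CPM in the controls, and 7.48, 10.1 and 5.49 CPM in KPC against 0.389, 2.23 and 0.915 CPM in controls at day 21. The groups did not overlap at either day, and the call was made at day 26 alone (log2 fold change 4.33, SE 0.84, edgeR adjusted p 0.0087).

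Of 25 hypoxia and glycolysis genes 5 were called higher at day 26, below the share of all genes, and 1, Adm, at day 21. Adm, which encodes the vasodilator adrenomedullin, was kept, with 564, 1455 and 312 CPM in the KPC libraries of day 26 against 118, 117, 85.9 and 92.2 CPM in the controls, and 329, 1401 and 815 CPM in KPC against 99.4, 95.5 and 114 CPM in controls at day 21. Its groups did not overlap at either day, and its log2 fold change was 2.91 ± 0.50 (SE, edgeR adjusted p 0.00712) at day 26 and 3.04 ± 0.56 (edgeR adjusted p 0.0275) at day 21, a difference of -0.13 with a 95% interval of -1.69 to 1.43. Slc2a1, the glucose transporter GLUT1, was called at day 26 (log2 fold change 1.59, SE 0.43, edgeR adjusted p 0.0228), where KPC replicate 3 lay below the controls and KPC replicates 1 and 2 above them. Of 2 erythroid markers tested both were called higher at day 26 and none at day 21. Of 8 tenocyte markers, with medians of -1.91 at day 26 and 0.20 at day 21, none was called at either day in 13 libraries, and Tnmd, Fmod, Chad, Kera and Cpxm2 grew in the lower direction in the 12-library fit. Fmod had 11.3, 17.8 and 63.8 CPM in the KPC libraries of day 26 against 73.2, 87.7, 59.4 and 264 CPM in the controls, and 148, 90.3 and 271 CPM in the KPC libraries of day 21 against 87.7, 154 and 59.2 CPM in the controls. Fmod encodes a collagen-binding proteoglycan; control replicate 4 was the highest library of day 26, and the groups overlapped at both days.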
